A study of Saccharomyces cerevisiae with 4 samples.

Results

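A set of plasma membrane permeases, each carrying particular amino acids, was followed in Saccharomyces cerevisiae expressing AAE13, a plant malonyl-CoA synthetase. The genes were taken by name, and all 10 had 1 probe each among the 4072 named genes tested. Of these, 7 are induced through the sensor Ssy1 (BAP2, BAP3, TAT1, TAT2, AGP1, GNP1 and DIP5) and the other 3 carry basic amino acids or histidine (CAN1, LYP1 and HIP1). The transgenic strain carried pAG305GPD-AAE13, in which the constitutive GPD (TDH3) promoter drives AAE13, and the control strain carried the vector with the ccdB cassette, pAG305GPD-ccdB. Both strains therefore carried the same integrating vector backbone, and both were grown at 30 °C in SD drop-out medium, given 0.2 mM malonate at an OD600 of 0.1 and collected in mid-log phase. The 4 arrays, of the 2-colour kind, each set 1 of 4 AAE13 cultures against 1 of 4 ccdB cultures, and AAE13 was in Cy5 on arrays 1 and 3, but in Cy3 on the other two. The number of independent transformants behind the cultures is not stated in the labels, and no probe for AAE13 itself was analysed here.

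Yeast senses amino acids outside the cell through Ssy1, a permease-like protein that acts with Ptr3 and the protease Ssy5. Ssy5 cuts the factors Stp1 and Stp2, which then enter the nucleus and, with Dal81, switch on a set of permease genes. Permeases such as Can1, Lyp1 and Hip1 have narrower substrates and are not classed with the Ssy1-induced set, while Gap1 and Put4 are known for repression by preferred nitrogen sources.

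Values are log2 ratios of AAE13 over ccdB after the median of each array was subtracted, which makes the typical probe the zero point. No source gives the direction of the ratios. The series title names AAE13 before ccdB, which makes AAE13 over ccdB likely but not settled. The titles of the samples name ccdB first on arrays 2 and 4, where ccdB is in Cy5, which is the order of Cy5 over Cy3. With the ratios turned the other way on every array each direction given here would be the opposite. Arrays of opposite dye orientation correlated at a mean of 0.576 over all probes and were read as running the same way. If the ratios instead ran as Cy5 over Cy3 on every array, limma called 0 of the permease genes and 0 of all named genes. At an unadjusted p under 0.05 there were then 154 genes and 0 permease genes. That fit has no term for a constant dye bias, which would widen its residual spread, so these counts cannot decide between the readings. With a dye term in the fit, the same contrast had 0 genes passing and 721 at an unadjusted p under 0.05. The deposited array medians were 0.431, 0.765, -0.174 and 1.41, and the spots' brightness over background is not known. Fold sizes assume that the log base is 2, and on a natural log scale a ratio such as that of AGP1 would be 7.54-fold in place of 4.06-fold.

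In the AAE13 strain, 3 of the 10 permease genes fell and 0 rose at an adjusted p under 0.05 in limma's moderated test. They were AGP1, TAT2 and DIP5, all of the Ssy1-induced set, each about 3- to 4-fold lower. Of all named genes 11.8% were called lower, 13.0% higher and 24.8% in either direction. At an unadjusted p under 0.05 there were 4 permease genes, BAP3 being the one added, against 1620 of all 4072 genes. The median of the 10 mean log2 ratios was -0.43, against -0.02 over all genes tested.

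AGP1 encodes a permease of broad specificity that carries many neutral amino acids. Its values on arrays 1 to 4 were -1.54, -1.37, -2.29 and -2.88 on the log2 scale. All 4 values lay below 0, with the lowest on arrays 3 and 4. Its mean was -2.02 ± 0.70 (SD, n = 4), a 4.06-fold lower ratio (limma adjusted p = 0.00248), and it ranked 37th from the lowest of the 4072 genes. The mean stayed between -2.24 and -1.73 when single arrays were left out, with the call kept each time.

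GNP1, the high-affinity glutamine permease and a close paralog of AGP1, had 0.76, 0.11, 0.13 and -0.63. Its values lay on both sides of 0, with a mean of 0.09 ± 0.57 (SD, n = 4; limma adjusted p = 0.797). AGP1 was below GNP1 on every array, the difference (AGP1 minus GNP1) being -2.30, -1.48, -2.41 and -2.25 on the log2 scale. Probe sequences were not analysed here, so how far probes for close paralogs share signal was not tested.

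DIP5 encodes the permease for glutamate and aspartate. Its log2 ratios of -1.49, -1.09, -1.59 and -2.03 were all below 0 and lay closer together than those of any other Ssy1-induced member. The mean was -1.55 ± 0.39 (SD, n = 4), or 2.93-fold lower (limma adjusted p = 0.00209).

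TAT2, the high-affinity tryptophan permease, had -1.34, -2.06, -1.01 and -1.77 on arrays 1 to 4. Every array was again below 0, the arrays with AAE13 in Cy3 more so. The mean was -1.55 ± 0.46 (SD, n = 4), or 2.92-fold lower (limma adjusted p = 0.0027). The falls of DIP5 and TAT2 depend on centring: with arrays not centred they stood at -0.94 each and did not pass (limma adjusted p = 0.0996 and 0.101), whereas AGP1 stood at -1.41 and passed (0.00908), as did 1.35% of all genes in that direction. With arrays not centred the median of all named genes was 0.58. In that fit limma gave every permease gene the same SE, 0.428. Passing there thus depended on the size of the mean alone, not on the spread of each gene over arrays.

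**Figure D1:**
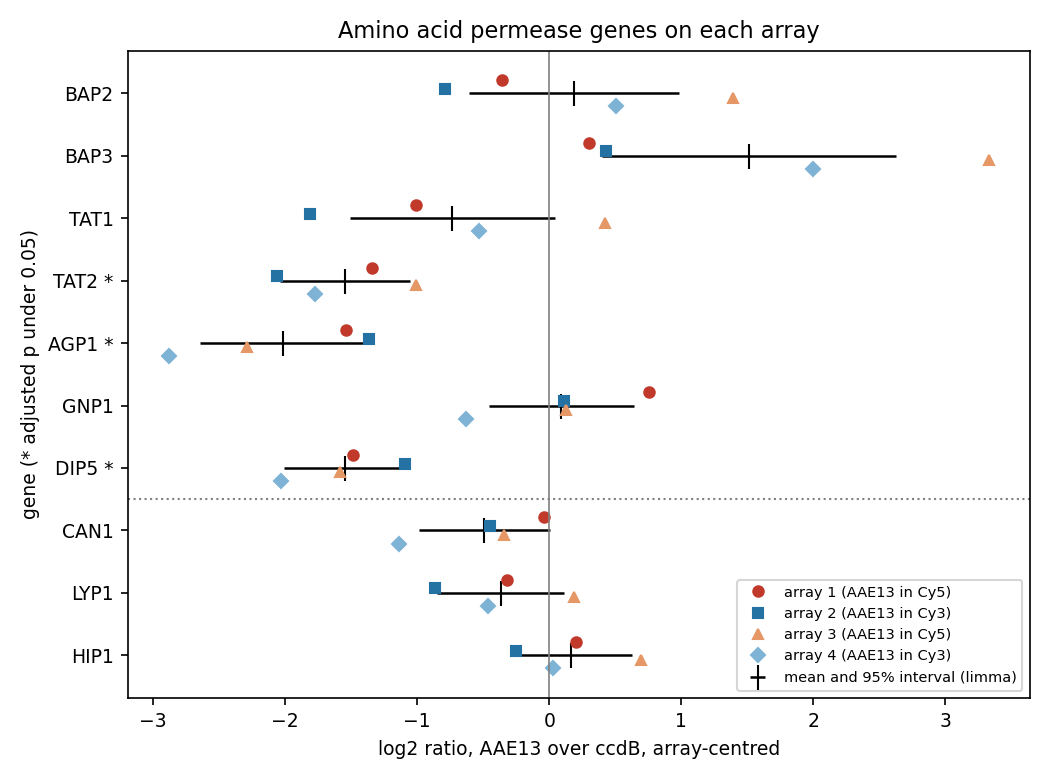
Log2 ratios of AAE13 over ccdB for the 10 permease genes (x axis, array-centred), with 1 marker per array, a tick at the mean and a line for limma's 95% interval. AGP1, TAT2 and DIP5 lie below 0 on all 4 arrays, while BAP3 lies above 0 on all 4 and is spread from 0.30 to 3.33.

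The branched-chain amino acid permeases and TAT1 did not pass but varied widely. BAP3, which carries leucine, isoleucine and valine among others, had 0.30, 0.43, 3.33 and 2.00 on arrays 1 to 4. All 4 values were above 0, as for 22.8% of all genes, the first 2 close to it and the last 2 far from it. Its mean of 1.51 ± 1.43 (SD, n = 4; 2.86-fold) missed the threshold (limma adjusted p = 0.0545), with a 95% interval of 0.40 to 2.63 for that gene alone. BAP3 passed without array 1 (adjusted p = 0.0382), without array 2 (0.0139) and with arrays not centred (2.37e-05, mean 2.12), as did 18.3% of all genes in that direction. Without array 3 its mean was 0.91 and without array 4 it was 1.35, and it did not pass in either case (adjusted p = 0.0716 and 0.189). With arrays not centred, limma gave every permease gene the same SE, 0.428. The spread of BAP3 itself, at 0.73, 1.19, 3.15 and 3.40 as deposited, therefore did not enter its uncentred p.

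BAP2, the branched-chain permease most similar to BAP3, had -0.36, -0.79, 1.39 and 0.50. The sign differed between the first 2 and the last 2 arrays, and the mean was 0.19 ± 0.97 (SD, n = 4; limma adjusted p = 0.718). BAP3 stood above BAP2 on every array, by 0.66, 1.22, 1.93 and 1.49 on the log2 scale.

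TAT1, which lies next to BAP2 on chromosome II and carries tyrosine and tryptophan as well as branched-chain amino acids, had -1.01, -1.81, 0.42 and -0.53. Arrays 1, 2 and 4 were below 0 and array 3 was above it. The mean was -0.73 ± 0.93 (SD, n = 4; limma adjusted p = 0.141), and without array 3 TAT1 was at -1.12 and passed (0.0173). The neighbouring genes TAT1 and BAP2 kept a narrow distance, TAT1 minus BAP2 being -0.65, -1.02, -0.98 and -1.03 on arrays 1 to 4.

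None of the 3 basic amino acid and histidine permeases passed, and 0 of them had an unadjusted p under 0.05 in limma. Over all genes 24.8% passed, and 1620 of 4072 had an unadjusted p under 0.05. CAN1, the arginine permease, had -0.04, -0.45, -0.34 and -1.14, below 0 on every array. Its mean was -0.49 ± 0.46 (SD, n = 4; limma adjusted p = 0.127), with a 95% interval of -0.99 to 0.00. It was 1 of 4 permease genes below 0 on all arrays, as were 23.5% of all genes.

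LYP1, the lysine permease, had -0.32, -0.87, 0.19 and -0.47, with array 3 alone above 0. The mean was -0.37 ± 0.44 (SD, n = 4; limma adjusted p = 0.225; 95% interval -0.85 to 0.11). HIP1, the histidine permease, had 0.20, -0.26, 0.69 and 0.03, with array 2 alone below 0. Its mean was 0.17 ± 0.40 (SD, n = 4; limma adjusted p = 0.566; 95% interval -0.30 to 0.63). In the centred fit these intervals leave room for differences of up to 2-fold for CAN1 and somewhat less for LYP1 and HIP1. With arrays not centred, CAN1 and LYP1 were at 0.12 and 0.24, on the other side of 0 (limma adjusted p = 0.859 and 0.704). HIP1 was then at 0.77 with an SE of 0.428 (limma adjusted p = 0.182), so the bounds above do not hold without centring.

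Ssy1-induced permeases were set against the basic amino acid and histidine permeases. Of the 7 Ssy1-induced genes, 3 fell and 4 missed the threshold, and all 3 of the others missed it. Of all genes, 11.8% were called lower and 24.8% in either direction. At such shares 3 genes are too few for a lack of calls to set them apart. The median of the means was -0.73 in the Ssy1-induced set and -0.37 in the others, against -0.02 over all genes. By array, the median of the Ssy1-induced set was -1.01, -1.09, 0.13 and -0.63, and that of the others was -0.04, -0.45, 0.19 and -0.47. The Ssy1-induced median was thus lower on each array, by a difference of -0.97 and -0.65 on arrays 1 and 2, but of only -0.06 and -0.16 on arrays 3 and 4. No test was made over these chosen genes.

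The sets also differed in spread. Between the lowest and the highest gene of an array lay 2.30, 2.49, 5.62 and 4.87 log2 units in the Ssy1-induced set, and 0.52, 0.61, 1.04 and 1.17 in the others. The first set holds more genes, which by itself widens a range. Taken as pairs of 1 gene from each set, the Ssy1-induced gene was lower on every array in 10 of 21 pairs, higher on every array in 4 and mixed in 7. The pairs share genes and are not independent, and no such share was computed for pairs of other genes. AGP1, TAT2 and DIP5 gave 3 lower pairs each, being below all of CAN1, LYP1 and HIP1 on every array. BAP3 gave 3 of the higher pairs, being above all of CAN1, LYP1 and HIP1 on every array.

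**Figure D2:**
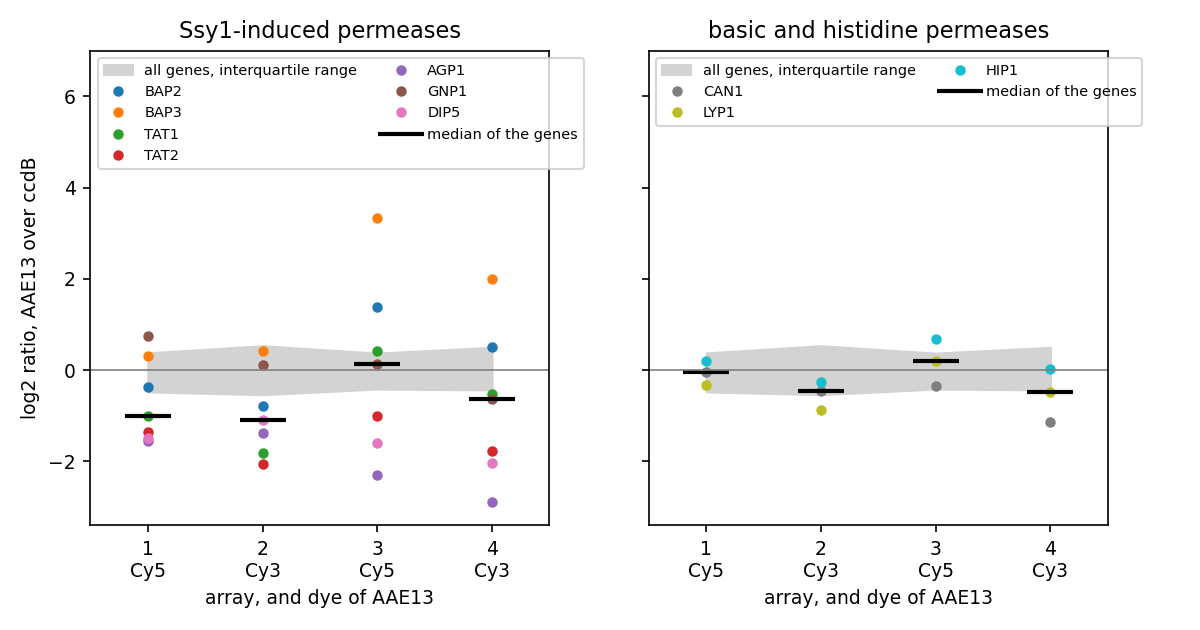
Log2 ratios of AAE13 over ccdB (y axis) for each gene on each array (x axis), Ssy1-induced permeases on the left and basic amino acid and histidine permeases on the right. Black bars are the medians of the genes shown and the grey band holds the interquartile range of all genes tested. The Ssy1-induced genes span 2.30 to 5.62 log2 units on an array and the others 0.52 to 1.17.

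A large part of the variation among arrays separated arrays 1 and 2 from arrays 3 and 4, which the labels do not describe as batches. This contrast held 72.3% of the variance within the 10 genes, against 47.6% over all genes measured on every array. Dye orientation held 21.9% within the 10 genes and 44.0% over all genes. These shares pool the squares of all genes counted, so the genes that vary most weigh most. BAP3 was at 2.66 on arrays 3 and 4 and at 0.37 on arrays 1 and 2 (means), a difference of 2.30. BAP2 had 0.95 on arrays 3 and 4 and -0.58 on arrays 1 and 2, and TAT1 had -0.06 on arrays 3 and 4 and -1.41 on arrays 1 and 2. These 3 differences, 2.30, 1.52 and 1.36, were above those of 99.8%, 98.9% and 98.3% of all genes. AGP1 went the other way, at -2.58 on arrays 3 and 4 and -1.46 on arrays 1 and 2, and only 2.19% of genes had a lower difference than its -1.13. In TAT2, GNP1, CAN1, LYP1 and HIP1 the difference between dye orientations was larger in size than that between these array pairs (0.74 against 0.31 in TAT2).

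**Figure D3:**
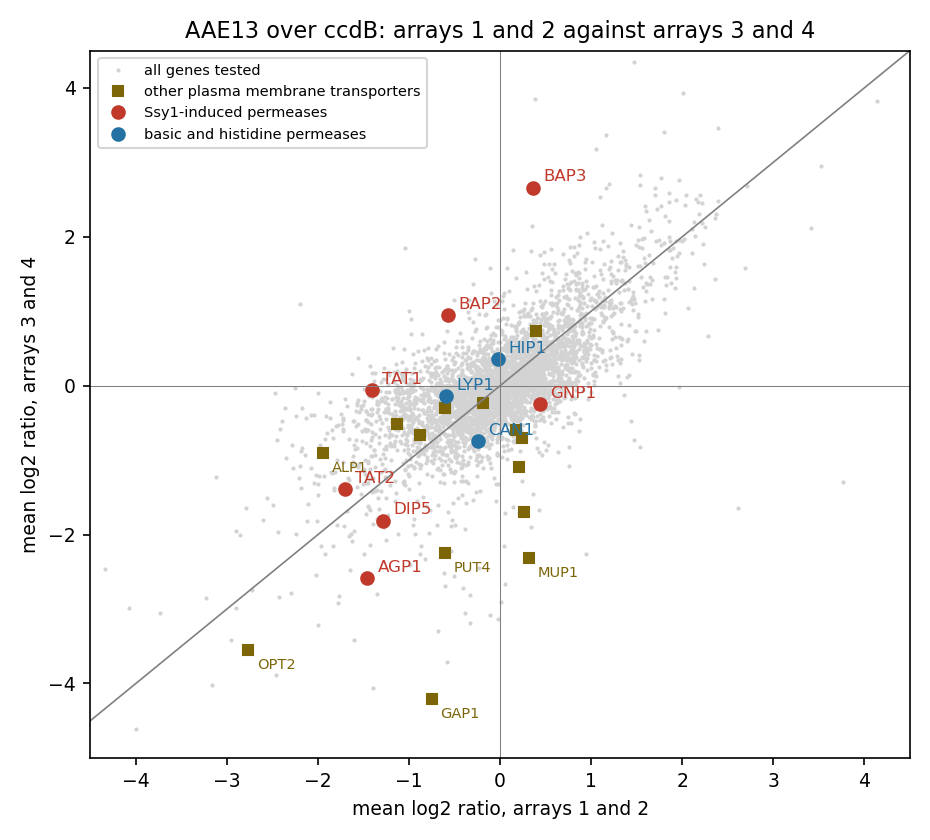
Mean log2 ratio on arrays 3 and 4 (y axis) against that on arrays 1 and 2 (x axis), with the line of equality. Red points are Ssy1-induced permeases, blue points basic amino acid and histidine permeases, brown squares other plasma membrane transporters and grey points all genes tested, of which 13 lie beyond the axes. BAP3, BAP2 and TAT1 lie above the line, and GAP1, MUP1 and PUT4 below it.

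The mean of every one of the 10 genes differed the same way with dye orientation. Each had a higher mean with AAE13 in Cy5 (arrays 1 and 3) than with AAE13 in Cy3 (arrays 2 and 4), as did 48.1% of all genes. If the ratios ran as Cy5 over Cy3 on every array, this contrast would itself measure AAE13 over ccdB, at 2 times the log2 ratio. TAT1, for example, had a contrast of 0.88 and a log2 ratio of 0.44 in that reading. Dye and AAE13 cannot be told apart in it while the direction of the ratios is unknown. The median difference was 0.60 over the 10 genes and -0.03 over all genes. The smallest was 0.03 for DIP5 and the largest 0.88 for TAT1, while HIP1, CAN1, LYP1 and BAP3 lay between 0.56 and 0.60. In a limma fit with a dye term, 0 permease genes and 0 of all genes passed for dye, and 1 permease gene (TAT2, 0.74) and 721 genes had an unadjusted p under 0.05. With that dye term AGP1, TAT2 and DIP5 still passed for AAE13 over ccdB.

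Genes that send the amino acid signal were called in both directions, at shares near those of all genes. Among 14 sensor and signalling genes tested there were 2 that rose, 2 that fell and 10 that missed the threshold, with a median of 0.05. Of all genes, 13.0% rose and 11.8% fell. SSY5, the protease gene, fell, with -0.67, -1.67, -0.51 and -1.13 on the 4 arrays and a mean of -0.99 ± 0.52 (SD, n = 4; limma adjusted p = 0.0186). SSY1, the sensor gene, had -0.44, -0.39, -0.83 and -0.68, with a mean of -0.58 ± 0.21 (SD, n = 4; limma adjusted p = 0.0412). Both genes were below 0 on every array.

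STP2, 1 of the factors that Ssy5 cuts, rose, with 0.13, 1.15, 0.52 and 1.11 and a mean of 0.73 ± 0.49 (SD, n = 4; limma adjusted p = 0.0473). YCK2, a casein kinase I gene of the plasma membrane that also acts in this pathway, had 0.51, 0.98, 1.24 and 1.38 and a mean of 1.03 ± 0.38 (SD, n = 4; limma adjusted p = 0.00982). The other factor gene, STP1, had -0.19, 1.50, -0.79 and 0.85, negative with AAE13 in Cy5 and positive with AAE13 in Cy3, and did not pass (limma adjusted p = 0.514). PTR3 at 0.03 ± 0.37 and DAL81 at -0.27 ± 0.29 (SD, n = 4) did not pass either (limma adjusted p = 0.928 and 0.298).

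These calls changed with single arrays and other settings. SSY1 lost its call without any single array (adjusted p from 0.0667 to 0.138) and stood at 0.02 with arrays not centred. STP2 lost its call without array 2, 3 or 4 (adjusted p = 0.132, 0.0522 and 0.179) and with array weights (0.0689), and YCK2 and SSY5 lost theirs without array 4 (0.0583 and 0.0855), SSY5 also with arrays not centred (-0.39).

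Other transporters of amino acids and peptides in the plasma membrane included several that fell. Of 14 tested, 6 fell, 1 rose and 7 missed the threshold, with a median of -0.74. Over all genes 11.8% fell and 13.0% rose, and the median was -0.02. OPT2, an oligopeptide transporter family gene, was the lowest, at -3.07, -2.46, -3.51 and -3.59 and a mean of -3.16 ± 0.52 (SD, n = 4; 8.92-fold lower; limma adjusted p = 0.00025). GAP1, the general amino acid permease gene, had -0.71, -0.78, -4.02 and -4.40, all below 0 but far lower on arrays 3 and 4. Its mean was -2.48 ± 2.00 (SD, n = 4; limma adjusted p = 0.0312), or -1.84 with no call without array 4 (0.123). With a dye term in the fit GAP1 did not pass either (0.0725).

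PUT4, the proline permease gene, showed the same split, at -0.57, -0.64, -1.98 and -2.51, with a mean of -1.43 ± 0.97 (SD, n = 4; limma adjusted p = 0.0229). Its call was lost without array 4 (0.0897), with a dye term (0.0506) and with arrays not centred (0.157). ALP1, a basic amino acid permease gene of the CAN1 and LYP1 family, had -1.59, -2.29, -0.61 and -1.21, with a mean of -1.43 ± 0.71 (SD, n = 4; limma adjusted p = 0.00968), and did not pass with arrays not centred (-0.82, 0.158). ALP1 was thus lower than CAN1, LYP1 and HIP1 in its mean, although its probe may share signal with those of its relatives, which was not tested.

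PTR2, the di- and tripeptide transporter gene, is also induced through Ssy1. It had -0.99, -1.28, -0.23 and -0.79, with a mean of -0.82 ± 0.44 (SD, n = 4; limma adjusted p = 0.0269), and the call was lost without array 1, 2 or 4 (0.0964, 0.0754 and 0.0955) and with arrays not centred (0.737). MUP1, the high-affinity methionine permease gene, had 0.05, 0.60, -2.10 and -2.53 and did not pass (-0.995 ± 1.55, SD, n = 4; limma adjusted p = 0.188). Without array 2 MUP1 was at -1.53 and passed (limma adjusted p = 0.0257). The remaining called genes, named after their values were seen, were the GABA permease gene UGA4 at -0.77 ± 0.24 and the methionine permease gene MUP3 at 0.56 ± 0.23 (SD, n = 4; limma adjusted p = 0.0168 and 0.0489). MUP3 lost its call without any single array (0.0882 to 0.149) and with all probes, array weights, scaled arrays or quantile normalization (0.05002 to 0.0533). UGA4 lost its call without array 1 or 4 (0.0818 and 0.0602) and with arrays not centred (0.802, mean -0.17).

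**Figure D4:**
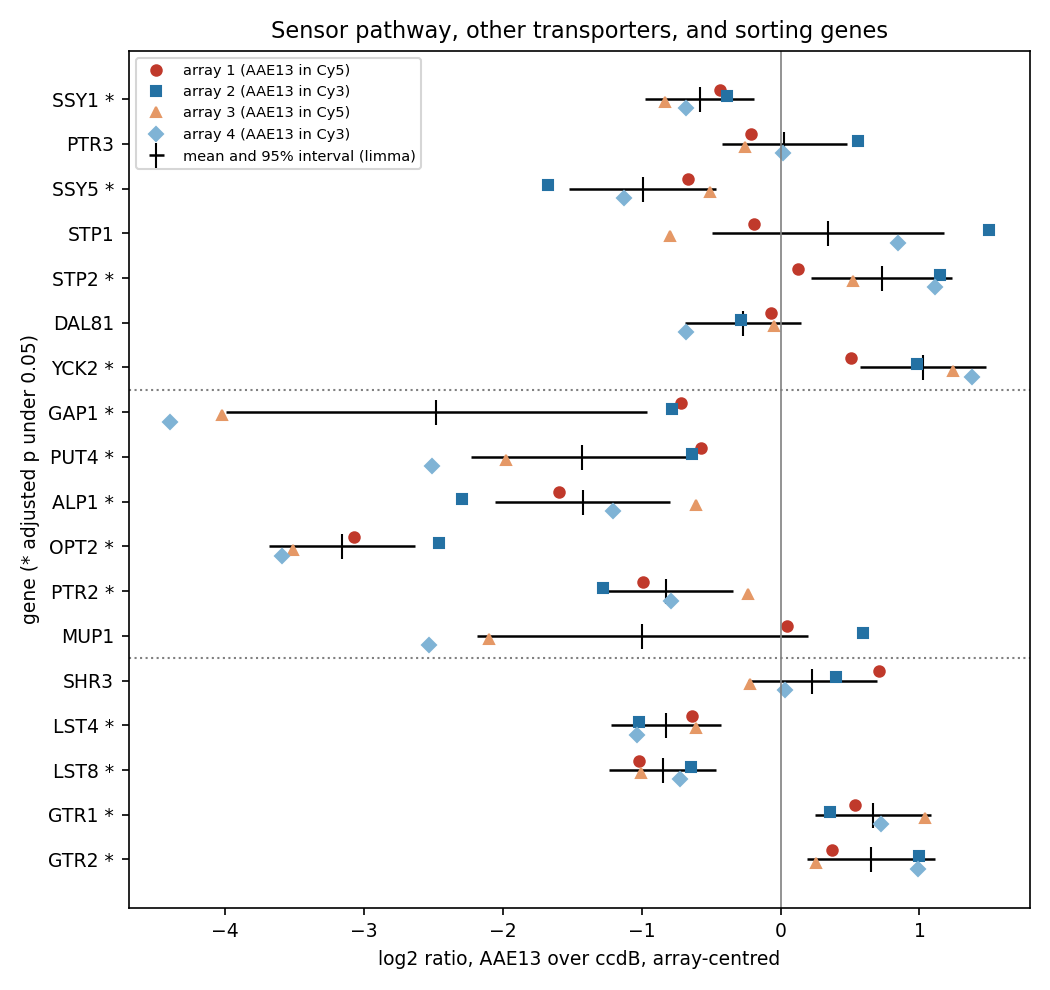
Log2 ratios of AAE13 over ccdB (x axis, array-centred) for genes of the sensor pathway (top), other plasma membrane transporters (middle) and permease folding and sorting (bottom), with 1 marker per array and limma's mean and 95% interval. GAP1 and MUP1 are below -2 on arrays 3 and 4 and between -0.78 and 0.60 on arrays 1 and 2.

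Most of the genes that fold, ubiquitinate or sort permeases did not pass. Of 17 tested (25 listed), 3 rose, 2 fell and 12 missed the threshold, with a median of 0.23. The share called was near the 24.8% of all genes. SHR3, whose product packages amino acid permeases for export from the endoplasmic reticulum, was at 0.71, 0.40, -0.22 and 0.03 and did not pass (limma adjusted p = 0.43). LST8, a subunit of the TOR complexes, was at -0.85 ± 0.19, and LST4, which acts on the vacuolar Gtr GTPases, at -0.83 ± 0.23 (SD, n = 4; limma adjusted p = 0.0107 and 0.013). The GTPase genes GTR1 and GTR2 were at 0.66 ± 0.29 and 0.65 ± 0.39 (SD, n = 4; limma adjusted p = 0.0346 and 0.0484). The arrestin gene ECM21, named after its value was seen, was at 0.62 ± 0.25 (SD, n = 4; limma adjusted p = 0.0363).

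Each of these 5 calls was lost without some array, LST8 without array 1 (adjusted p = 0.0519), LST4 without array 4 (0.0684), GTR1 without array 1, 3 or 4 (0.0886, 0.0979 and 0.117), GTR2 without array 1, 2 or 4 (0.0861, 0.146 and 0.179), and ECM21 without any single array (0.0643 to 0.13). GTR2 also lost its call with array weights (0.0543) and with all probes (0.0505), and LST4 and LST8 were at -0.22 and -0.24 with arrays not centred. Only 2 of 17 listed vacuolar amino acid transporter genes had a named probe, and in limma 0 passed and 0 had an unadjusted p under 0.05. With 24.8% of all genes passing, 2 genes are too few to read a result from this.

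The genes nearest to BAP3, the highest member, by Euclidean distance over the 4 arrays were ILV2, MET1 and PDR12, at distances of 0.76, 1.14 and 1.33 log2 units among 4068 other genes. ILV2, acetolactate synthase of branched-chain amino acid synthesis, had 0.27, 0.43, 2.65 and 1.65. The genes nearest to AGP1, the lowest member, were HPA3, SPL2 and FRE1, at distances of 0.47, 0.61 and 0.66. HPA3, an acetyltransferase gene, had -1.54, -1.46, -1.98 and -2.54. With 4 arrays such nearness is a description of these arrays alone.

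**Figure D5:**
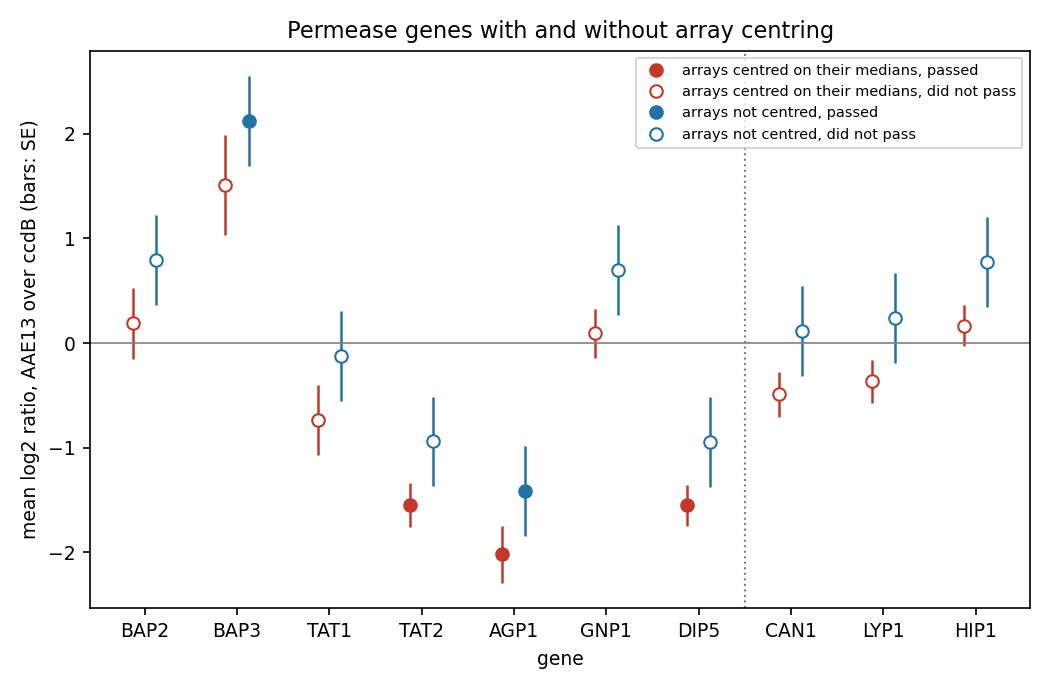
Mean log2 ratio of AAE13 over ccdB (y axis, bars are limma's SE) for each permease gene, with arrays centred on their medians (red) and not centred (blue). Filled points passed at an adjusted p under 0.05. Without centring limma's SE was the same, 0.428, for every gene shown, so passing there follows the size of the mean alone. AGP1 passes both ways, TAT2 and DIP5 pass with centring alone and BAP3 passes without centring alone.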

How the data were processed

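The deposited table holds log ratios made by the authors, read here as log2 by assumption, for 6256 probes on 4 arrays, with 4 missing values. How background was corrected, how the ratios were normalized, their log base and their direction: none of these is given in the sources used here. Per the labels' protocols, cDNA was primed with oligo-dT on total RNA and coupled to Alexa dyes in a second step. The platform annotation named 1 gene for 4075 probes and none for 2181. Symbols were brought up to date with RefSeq's table of assembly R64 (names and neighbouring genes only): 3942 probes carried current symbols, 125 were updated and 8 were kept.

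Each array was centred on its median, probes of a gene were averaged, and genes measured on at least 3 arrays (4072) went into 1 fit in limma 3.58.1 under R 4.3.3 (lmFit, then eBayes). The two-sided p of each mean against 0 was adjusted over all genes by Benjamini-Hochberg, and 0.05 was the threshold. The code was tested on simulated data. SD values are over arrays, and the precision is limited by their number. The labels describe biological replicates, and each array is a pair of cultures with its own hybridization and dye orientation. The p-values measure the spread between arrays, in which culture, hybridization and dye are mixed. Plots come from matplotlib 3.10.9 in Python 3.11.15.

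The permease genes, the lists of other genes, the tests and the alternatives were chosen with earlier results of these data known. Named genes were the 10 permease genes, up to 4 called genes with the largest change in each list, 10 fixed genes of the pathway and the 3 genes nearest to the highest and the lowest member. The alternatives were another direction reading, a dye term, no centring, scaling, quantile normalization, a filter on missing values, array weights, robust or no moderation, all probes, other thresholds and leaving out each array. Promoter and protein sequences were not used here.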

Additional observations from a re-analysis of the deposited data

How the results depend on the processing

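The count of permease genes that passed was 3, or 3 to 4 with single arrays left out, and the count of all named genes was 1011, or 428 to 1044. At an adjusted p under 0.01 there were 390 genes, of which 3 were permease genes. Without moderation 143 genes and 0 permease genes passed, AGP1, TAT2 and DIP5 then having adjusted p = 0.0839, 0.0736 and 0.062, and of the 16 named genes of the other lists called in limma 15 lost their call, OPT2 (0.0442) being the exception. There were 1225 genes and 3 permease genes at an unadjusted p under 0.05. Read as Cy5 over Cy3, in a fit without a term for dye bias, 0 genes and 0 permease genes passed in limma. AGP1 was then at 0.10, CAN1 at 0.30, DIP5 at 0.013, LYP1 at 0.30, TAT1 at 0.44 and TAT2 at 0.37, opposite in sign to the reading used. So were ALP1 at 0.32, DAL81 at 0.21, ECM21 at -0.025, GAP1 at 0.11, GTR2 at -0.34, LST4 at 0.20, PTR2 at 0.21, PTR3 at -0.26, PUT4 at 0.15, SSY5 at 0.41, STP1 at -0.83, STP2 at -0.40 and YCK2 at -0.15. With arrays not centred the sign turned for CAN1 (0.12), LYP1 (0.24), DAL81 (0.34) and SSY1 (0.024). The uncentred adjusted p of the named genes followed the size of the mean alone, not the spread of each gene. PTR3 turned to -0.018 with array weights, -0.0082 with scaled arrays and -0.0031 after quantile normalization. With single arrays left out, the means ranged over 0 for GNP1 (-0.13 to 0.33), BAP2 (-0.22 to 0.51), HIP1 (-0.0088 to 0.31), PTR3 (-0.15 to 0.12) and STP1 (-0.045 to 0.72). The difference of medians between Ssy1-induced and other permeases was -0.37, from -0.58 to -0.17 with single arrays left out, and 0.03 when read as Cy5 over Cy3. The causes of these changes were not tested. AGP1, TAT2 and DIP5 kept direction and call under scaling, quantile normalization, array weights, robust moderation, a dye term, all probes and each array left out.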

Other observations

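The split between arrays 3 and 4 and arrays 1 and 2 was also seen in some other transporter genes that did not pass, named here after their values were seen. AGP3, a broad amino acid permease gene, averaged -1.69 on arrays 3 and 4 and 0.26 on arrays 1 and 2. The S-methylmethionine permease gene MMP1 averaged -1.09 on arrays 3 and 4 and 0.21 on arrays 1 and 2, and the S-adenosylmethionine permease gene SAM3 -0.70 on arrays 3 and 4 and 0.24 on arrays 1 and 2. None of the 3 passed over all arrays (limma adjusted p = 0.21, 0.347 and 0.543). Others of that list differed: OPT1 averaged -0.30 on arrays 3 and 4 and -0.60 on arrays 1 and 2, and AGP2 -0.24 and -0.18. The called genes ALP1, PTR2, MUP3 and UGA4 also had higher means on arrays 3 and 4. Over all genes the 5th and 95th percentiles of the difference, arrays 3 and 4 minus arrays 1 and 2, were -0.81 and 1.04.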
